A study of Mus musculus with 28 samples.

Results

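Mouse small-intestinal organoids treated with recombinant BMP2 were set directly against organoids treated with recombinant BMP7. The comparison takes 7 of the 28 samples in the series, namely the 4 BMP2 samples (replicates II, III, IV and VI) and the 3 BMP7 samples (replicates II, III and VI). They were chosen by treatment name alone, and no measured value entered the choice. All 7 samples were epithelium of wild-type C57BL/6 genotype, and both ligands were given at 500 ng/ml for 24 h, so the dose by weight and the time were matched. Crypts were first plated in ENR medium without added Bmp or Tgfb ligand and were moved to fresh gel before treatment. The 4 untreated samples of the same table show the level from which each ligand moved a gene. Per its title, the study asks which Tgfb superfamily members drive the last steps of enterocyte maturation at the villus tip. The labels do not say whether replicates came from separate mice or cultures, so p-values measure the spread between these samples, which may be technical.

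BMPs are secreted dimers that bring type I and type II receptor kinases together on the cell surface. The type I receptor phosphorylates Smad1, Smad5 and Smad9, which join Smad4, enter the nucleus and switch on targets such as the Id genes and the inhibitory Smads that damp the signal. BMP2 and BMP7 belong to different branches of the family and differ in their preference among these receptors. In the intestine, BMP signalling is known to be weak at the crypt base, where stem cells divide, and strong along the villus, where enterocytes mature.

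Depth did not separate the groups. The 4 BMP2 samples held 21357863 to 23611493 reads and the 3 BMP7 samples 22050885 to 23434791. Values below are the deposited normalized counts, which are reads divided by a size factor for each sample. Their sum was 27350549 ± 1181883 with BMP2 (SD, n = 4) and 20873343 ± 621913 with BMP7 (SD, n = 3), with no overlap (exact permutation test, two-sided p = 0.0286, the smallest that 35 arrangements can give). Epithelial markers were high in all 7 samples, and their summed level was 528220 to 665640 with BMP2 and 209270 to 291770 with BMP7. Krt8 was the largest part, with means of 34100 in controls, 107900 with BMP7 and 285250 with BMP2. Epcam, Cdh1, Krt18 and Vil1 were also higher with BMP2. Cdx2 was lower, with means of 2293 with BMP7 and 1635 with BMP2 (log2 difference -0.54, limma adjusted p = 0.016). Of the fibroblast markers, Col3a1 was at 1 read or fewer in every sample and Dcn and Lum had no row in the table. The muscle marker Des was at 0 in all 7 samples, and the endothelial marker Kdr was at 2 reads or fewer. Other markers of such cells were present: the endothelial Pecam1 was at 583 to 988 normalized counts in the 7 samples, Cdh5 reached 32 reads and the fibroblast marker Pdgfra 33 reads with BMP2, and the muscle marker Acta2 reached 111 reads with BMP7. In bulk samples, fewer cells of a type and less RNA per cell cannot be told apart.

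The direct comparison was broad. Of 14746 genes tested, 9262 (62.8%) differed between BMP2 and BMP7 at a limma adjusted p under 0.05 (Benjamini-Hochberg over all genes tested). BMP2 was higher for 4637 genes (31.4%) and lower for 4625 (31.4%), and 8610 genes (58.4%) had no overlap between the 4 BMP2 and the 3 BMP7 samples. These shares over all genes are the background for the list counts below. In the same fit 11077 genes (75.1%) differed between BMP2 and control and 4773 (32.4%) between BMP7 and control. Both of those comparisons use the same 4 control samples. Large differences lay mostly on the lower side: 973 called genes were at least 4-fold lower with BMP2 and 329 at least 4-fold higher, on the log2(value + 1) scale. At 16-fold or more the counts were 170 lower and 12 higher. The even split depended on the authors' scaling. When all samples were given 1 common total, 2514 genes were higher and 6971 lower, and the median log2 difference of all genes moved from 0.04 to -0.35. With TMM scaling the counts were 3815 and 5290, and that median was -0.09.

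**Figure D1:**
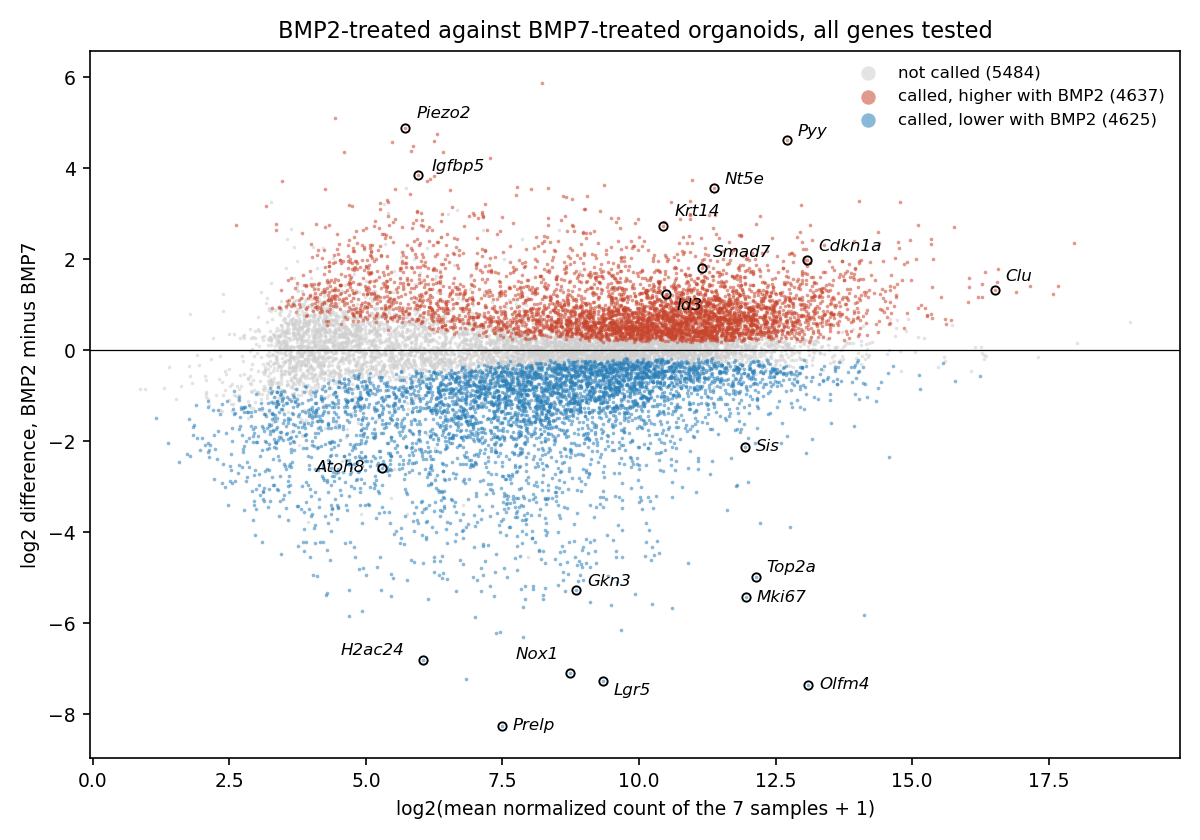
Log2 difference (BMP2 minus BMP7, vertical) of each of the 14746 genes tested against its mean level in the 7 samples (horizontal, log2 scale); red and blue points are called genes and grey points are not called. The lower side reaches farther from 0 than the upper side: Prelp lies at -8.26 and Olfm4 at -7.35, while Piezo2 lies at 4.90 and Pyy at 4.62.

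The genes that stood highest with BMP2 were a mixed group. Pyy, which encodes the gut hormone peptide YY, was at 536, 298 and 562 normalized counts in the 3 BMP7 samples and at 12100, 14000, 7540 and 11600 in the 4 BMP2 samples. The lowest BMP2 sample was far above the highest BMP7 sample. In the 4 controls Pyy was at 0.83 to 2.66, a level of 3 reads or fewer. Its log2 difference between BMP2 and BMP7 was 4.62 ± 0.69 (SE, limma adjusted p = 1.31e-05). Piezo2, a mechanically gated ion channel, was at 0 to 3.64 with BMP7 and 41.8 to 125 with BMP2, a log2 difference of 4.90 ± 0.59 (SE, limma adjusted p = 9.88e-07). Stmn2, a microtubule regulator, Tgm4, a transglutaminase, and Igfbp5, a binding protein of insulin-like growth factors, had log2 differences of 4.38, 4.24 and 3.84. All 3 were at or near 0 in controls and below 16 normalized counts in every BMP7 sample. Mndal (log2 difference 4.61) has near-identical relatives among the interferon-inducible genes, so its reads may be shared between copies.

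The genes that stood lowest with BMP2 included the main markers of crypt stem cells. Lgr5, the R-spondin receptor that marks them, was at 1360, 2050 and 1070 with BMP7 and at 9.08, 7.67, 3.53 and 17.7 with BMP2. Controls were at 3150 to 5210, so BMP7 samples lay below every control and BMP2 samples far below both. The BMP2 mean was 157-fold below the BMP7 mean, with a log2 difference of -7.28 ± 0.40 (SE, limma adjusted p = 1.51e-10). Olfm4, a secreted glycoprotein of stem cells and their early progeny, was at 19300, 18000 and 23400 with BMP7 and at 88.5, 66.5, 68.2 and 549 with BMP2. Replicate VI was the highest BMP2 sample for Olfm4 and for Lgr5. Nox1, an oxidase that makes superoxide, was at 878 to 1060 with BMP7 and 2.27 to 26.6 with BMP2. Slc16a12, a monocarboxylate transporter family member, fell from 468 to 605 with BMP7 to 3.84 to 10.1 with BMP2. Prelp, a small leucine-rich matrix proteoglycan, was at 321 to 475 with BMP7 and had only 2 reads in all 4 BMP2 samples together against 1353 in the 3 BMP7 samples. The ratio of the 2 rates was 690 with a 95% exact conditional interval of 191 to 5699, which covers counting error only. H2ac24 was at 0 in all 4 BMP2 samples, which against a floor of 3 reads per sample is at least 41.6-fold lower than with BMP7. It is a histone gene with near-identical copies, so its reads may be shared.

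Direct BMP targets went in both directions, from -2.58 for Atoh8 to 1.80 for Smad7 on the log2 scale. Of 10 targets tested, 3 were higher with BMP2, 1 was lower and 6 did not pass, 40% called beside 62.8% of all genes. Their median log2 difference of 0.30 turned to -0.09 under a common total. Under that scaling 1 was higher and 2 were lower, and without BMP7 replicate III 1 was higher. Against control the same list gave 8 higher and 0 lower with BMP7, and 7 higher and 2 lower with BMP2. The shares of all genes called against control were 32.4% with BMP7 and 75.1% with BMP2. The list's median log2 difference from control was 2.66 for BMP7 and 2.89 for BMP2.

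Id1, Id2 and Id3 encode helix-loop-helix proteins that lack a DNA-binding region and block differentiation factors. Id1 was at 2330, 1480 and 1800 with BMP7, at 2800, 2770, 2700 and 2970 with BMP2, and at 112 to 171 in controls. The BMP2 samples were tightly grouped just above the BMP7 samples, with a log2 difference of 0.61 ± 0.19 (SE, limma adjusted p = 0.0105). That call was lost with quantile normalization (adjusted p = 0.124), under a common total (0.301) and without BMP7 replicate III (0.0764). Id3 was at 1240, 698 and 594 with BMP7 and at 2050, 2070, 1680 and 1770 with BMP2, a log2 difference of 1.23 ± 0.42 (SE, limma adjusted p = 0.0163). The Id3 groups did not overlap, but the call was lost under a common total (0.0898) and without BMP7 replicate III (0.0571) or VI (0.0762). Id2 was at 1200, 1450 and 900 with BMP7 and at 1640, 1840, 820 and 715 with BMP2, so the groups overlapped fully. Its log2 difference was -0.01 with a 95% interval of -0.72 to 0.70, so differences of that size in either direction remain possible.

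Id2 and Id3 rose with both ligands, and their promoter sequences are shown side by side. Whether the ligands differed more for Id3 than for Id2 was not tested, nor was any part of these motifs in it. They are the 250 bases before the start of each gene, 5′ to 3′, from RefSeq on GRCm38.p6, which is not the build named in the submitters' processing notes. Capitals mark GGCGCC, a GC-rich element of the kind bound by BMP-activated Smads, and CAGAC, a Smad-binding box, searched on both strands. Of the 3 Id genes looked for, 2 matched an entry; Id1 is named only.
Id2 promoter, chr12:25096093-25096342, minus strand: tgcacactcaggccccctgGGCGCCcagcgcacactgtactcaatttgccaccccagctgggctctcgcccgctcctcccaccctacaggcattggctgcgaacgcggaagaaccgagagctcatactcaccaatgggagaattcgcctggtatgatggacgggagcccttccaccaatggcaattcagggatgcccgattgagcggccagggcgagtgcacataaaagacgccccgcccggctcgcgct
Id3 promoter, chr4:136143572-136143821, plus strand: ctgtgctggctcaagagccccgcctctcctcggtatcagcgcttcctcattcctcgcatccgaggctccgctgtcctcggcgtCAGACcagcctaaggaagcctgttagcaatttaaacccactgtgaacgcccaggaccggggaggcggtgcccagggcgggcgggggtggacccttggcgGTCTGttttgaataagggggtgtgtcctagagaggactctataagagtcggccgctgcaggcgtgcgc
The Id2 window held GGCGCC at bases 231 to 226 before the start and no CAGAC. The Id3 window held CAGAC at bases 167 to 163 and, on the other strand as GTCTG, at bases 68 to 64, and no GGCGCC. Of 32851 promoter windows of this length, 9.59% held GGCGCC and 42.2% held CAGAC, and the motifs did not overlap each other in either window shown. A match describes letters in the window and is not a measured binding site.

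The inhibitory Smads differed from each other. Smad7, which blocks receptor signalling of the whole superfamily, was at 1290, 614 and 1020 with BMP7 and at 3350, 3100, 3260 and 3300 with BMP2. Every BMP2 sample was more than 2-fold above every BMP7 sample, and the log2 difference was 1.80 ± 0.26 (SE, limma adjusted p = 6.97e-06). Smad6, which acts mainly on BMP receptors, was at 211, 156 and 178 with BMP7 and at 245, 358, 292 and 295 with BMP2. The Smad6 groups did not overlap, yet the log2 difference of 0.71 did not pass the test (adjusted p = 0.157). It passed when only the 7 samples entered the fit (adjusted p = 0.00558), with quantile normalization (0.0426) and with the replicate number in the fit (0.0216). Atoh8, a BMP-responsive helix-loop-helix factor, went the other way: it was at 82.6, 63.8 and 72.2 with BMP7, 21.6 to 47.9 in controls and 9.08, 16.6, 16.5 and 6.33 with BMP2. It was higher than control with BMP7 (log2 1.17, adjusted p = 0.0132), lower than control with BMP2 (log2 -1.41, adjusted p = 0.000532), and differed between the ligands by -2.58 ± 0.34 (SE, limma adjusted p = 3.02e-06). Msx1, a homeobox target, had group means of 39.2 with BMP7 and 72.4 with BMP2 (adjusted p = 0.0576), and Smad9 had means of 41.1 and 30.6 (adjusted p = 0.467).

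**Figure D2:**
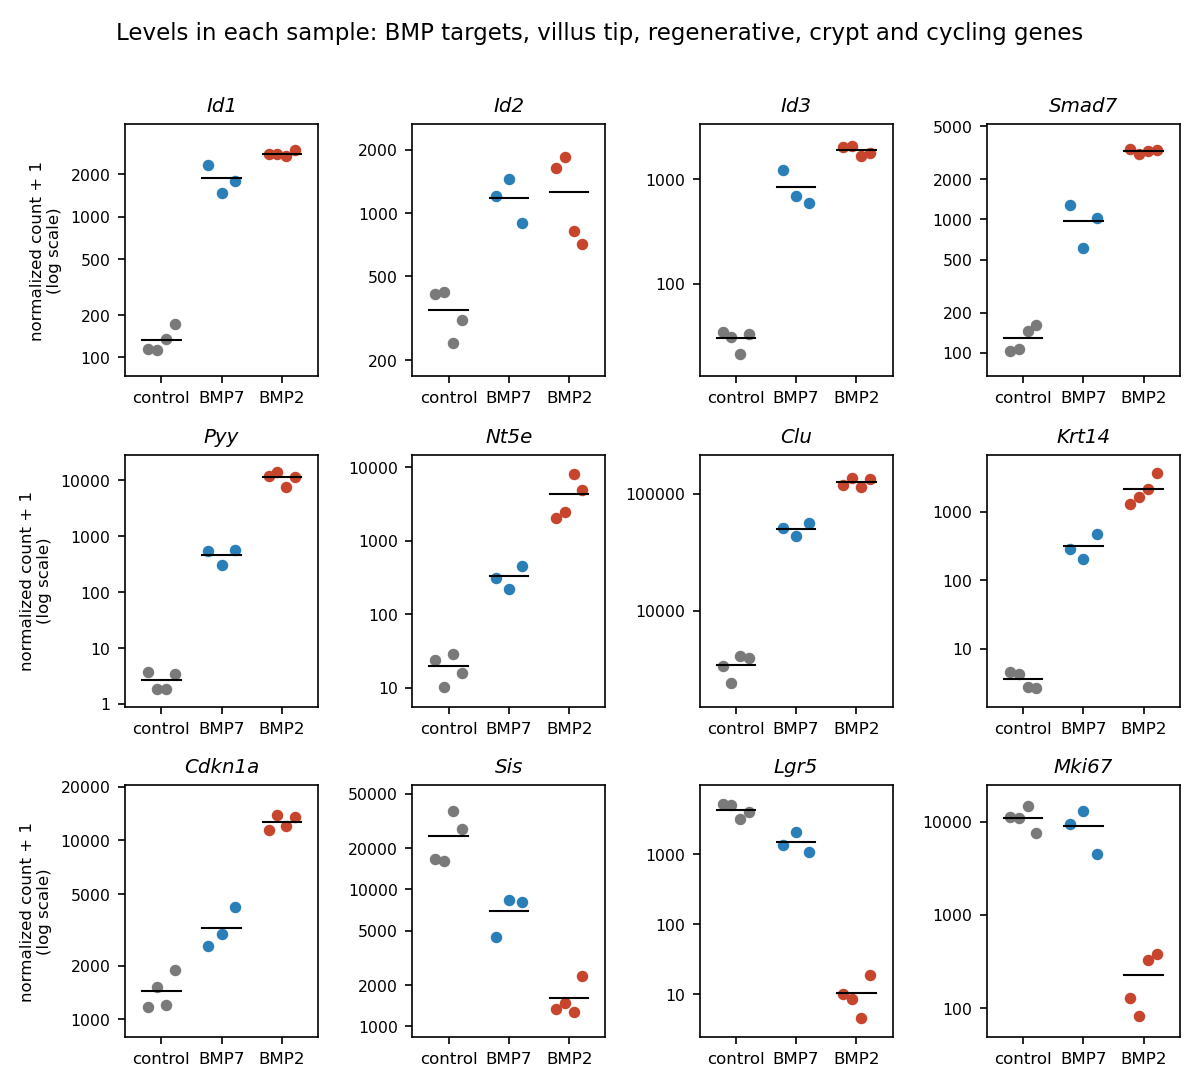
Normalized count + 1 (vertical, log scale) of 12 genes in each of the 4 control, 3 BMP7 and 4 BMP2 samples (points), with the group mean as a line. Id2 overlaps between the ligands, whereas Smad7, Pyy, Nt5e, Clu, Krt14 and Cdkn1a are higher and Sis, Lgr5 and Mki67 lower in every BMP2 sample than in every BMP7 sample.

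The receptors themselves shifted in both directions. Of 10 receptors and co-receptors tested, 5 were higher with BMP2, 2 were lower and 3 did not pass. The called share of 70% was near the 62.8% of all genes. Their median log2 difference of 0.32 turned to -0.07 under a common total, where 2 were higher. Acvr1, a type I receptor used by BMP7-type ligands, was at 1320, 1120 and 1300 with BMP7 and at 2730, 2630, 2610 and 2760 with BMP2, against 372 to 411 in controls. Both treated groups were far above control, and BMP2 was 2.15-fold above BMP7 (limma adjusted p = 1.92e-07). The type II receptor Bmpr2 had means of 3727 with BMP7 and 6835 with BMP2 (log2 difference 0.88, adjusted p = 7.22e-05). Bmpr1a, a type I receptor preferred by BMP2, had means of 4350 and 4630 and did not pass (adjusted p = 0.444). Acvr1c, a type I receptor for activin and nodal ligands, fell by 2.54 on the log2 scale, and the co-receptor Rgmb fell by 0.81.

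Among Smad proteins and their regulators, 7 of 11 were higher with BMP2, 0 were lower and 4 did not pass (median log2 difference 0.42). Their called share of 63.6% was close to the 62.8% of all genes. Under a common total 5 were higher and 2 lower. Tgif1, a co-repressor that restrains Smad transcription, was at 2490, 2020 and 2660 with BMP7 and at 6450, 7640, 6490 and 6520 with BMP2. That is a 2.83-fold higher mean without overlap (limma adjusted p = 6.77e-09). The ubiquitin ligases Smurf1 and Smurf2, which mark Smads and receptors for degradation, rose by 1.28 and 0.75 on the log2 scale. The BMP Smads Smad1 and Smad5 did not pass (adjusted p = 0.182 and 0.147), while Smad2 and Smad3, the Smads of the Tgfb branch, were higher by 0.74 and 0.42.

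Of the organoids' own ligand genes, 9 were tested: 4 were higher with BMP2, 1 was lower and 4 did not pass (median log2 difference 0.87, or 0.48 under a common total). The share called was 55.6%, beside 62.8% of all genes. The endogenous Bmp7 gene was at 162, 209 and 130 in BMP7-treated organoids, at 422 to 592 in controls and at 1.14, 15.3, 2.35 and 7.59 with BMP2. The 3 groups did not overlap, and the log2 difference between the ligands was -4.87 ± 0.46 (SE, limma adjusted p = 5.05e-08). The endogenous Bmp2 gene had a mean of 192 with BMP7 and 433 with BMP2 (log2 difference 1.16, adjusted p = 0.00148). Bmp4 was at 5.47 to 18.1 with BMP7 and 31.6 to 72.9 with BMP2, and Bmp3, at a mean of 1160 in controls, was down to means of 28.9 and 21.3 with no call between the ligands (adjusted p = 0.416). Tgfb1 was at 417 to 595 with BMP7 and 645 to 1100 with BMP2 (log2 difference 0.87, adjusted p = 0.00977), a call that was lost under a common total (adjusted p = 0.124).

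Of 6 secreted antagonists tested, 3 were higher with BMP2, 1 was lower and 2 did not pass, 66.7% called beside 62.8% of all genes. Their median log2 difference of 0.27 turned to -0.11 under a common total. Follistatin (Fst), which traps activins and some BMPs, had means of 62.2 with BMP7 and 219 with BMP2, and Nbl1, a DAN family antagonist, had means of 466 and 1508. Both were higher with BMP2, by 1.88 and 1.77 on the log2 scale. Fstl1, a follistatin-like glycoprotein, was at 750, 630 and 695 with BMP7, 140 to 310 in controls and 61.3, 49.9, 81.2 and 105 with BMP2. It was thus above control with BMP7 and below control with BMP2, with a log2 difference of -3.25 ± 0.29 between them (SE, limma adjusted p = 2.09e-08).

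Genes usually read as Tgfb targets were higher with BMP2 in most cases. Of 13 tested, 9 were higher, 1 was lower and 3 did not pass, with a median log2 difference of 1.06 beside 0.04 over all genes. Under a common total 5 were higher. The 1 lower gene in the main fit was Tgfbi, with means of 65.57 in controls, 24.97 with BMP7 and 7.82 with BMP2. Its samples did not overlap between the ligands (log2 difference -1.572, limma adjusted p = 6.78e-05). Tgfbi was also lower than control with BMP7 (log2 -1.327, adjusted p = 0.001073) and with BMP2 (log2 -2.899, adjusted p = 5.48e-09). Fn1, which encodes fibronectin, had means of 24.8 in controls, 362 with BMP7 and 3143 with BMP2, and the samples spanned 226 to 522 and 1280 to 5710. Its log2 difference was 3.00 (limma adjusted p = 8.83e-06). Itgb6, the integrin subunit that activates latent Tgfb, was at 4340, 3320 and 4420 with BMP7 and at 9410, 9320, 11300 and 11500 with BMP2, with no overlap (log2 difference 1.37, adjusted p = 3.74e-06). Summed fibroblast markers were also higher with BMP2, at 33.3 to 54.2 against 15.5 to 18.3 with BMP7 and 0.826 to 25.7 in controls (exact permutation p = 0.0286). Most of the difference between the ligands lay in Pdgfra, with means of 22.95 with BMP2 and 3.95 with BMP7. Col1a1 had means of 15.93 and 12.76. Summed endothelial markers were at 833 to 1022 against 583 to 715, nearly all from Pecam1, and Cdh5 had means of 31.2 and 0.64. Immune markers were at 37.9 to 131 against 34.6 to 50.8 and muscle markers at 12.8 to 40.5 against 12.5 to 103. The part of these markers in the result was not tested.

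Cell cycle genes were lower with BMP2 than with BMP7. All 25 cell cycle genes tested were lower with BMP2 than with BMP7, 100% called beside 62.8% of all genes. The groups did not overlap for any of them, beside 58.4% of all genes without overlap. The median log2 difference was -3.48. The 25 were also lower under each scaling tried. Against control, 2 of the 25 were lower with BMP7 and 23 did not pass, beside 32.4% of all genes called. All 25 log2 differences were below 0 (-0.72 to -0.06, median -0.43). With BMP2 25 of 25 were lower than control (median -4.11), beside 75.1% of all genes called. Mki67, the proliferation antigen, was at 9380, 13100 and 4490 with BMP7, 7480 to 14500 in controls and 128, 81.8, 325 and 380 with BMP2. BMP7 samples thus overlapped with controls, while every BMP2 sample was more than 10-fold below the lowest BMP7 sample (log2 difference -5.43 ± 0.44, SE, limma adjusted p = 8.53e-09). Top2a, the topoisomerase of dividing cells, had means of 10920 in controls, 10050 with BMP7 and 339 with BMP2. Ccna2, a cyclin of S and G2 phase, had the largest fall of the list at 5.66 on the log2 scale, and the replication factors Pcna and Mcm6 had the smallest, at 1.17 and 0.97. Tyms, thymidylate synthase, had the smallest p of the list, with 775 to 1060 normalized counts with BMP7 and 102 to 130 with BMP2 (log2 difference -3.07, adjusted p = 8.06e-11). It was 1 of the 2 genes that were also lower than control with BMP7 (log2 -0.49, adjusted p = 0.0245), the other being the centromere histone Cenpa.

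Crypt stem genes fell with BMP2 in most cases but not as a block. Of 17 tested, 13 were lower with BMP2 than with BMP7, 2 were higher and 2 did not pass, 88.2% called beside 62.8% of all genes. Their median log2 difference was -1.12, and 14 of 17 had no overlap beside 58.4% of all genes. Cdca7, a Myc target of crypt cells, was at 2720, 2800 and 2670 with BMP7 and at 40.9, 60.1, 43.5 and 89.9 with BMP2, a 46.6-fold lower mean (limma adjusted p = 7.66e-12). Ascl2, a transcription factor of stem cell identity, was at 349 to 439 with BMP7, close to the 290 to 363 of controls, and at 21.2 to 42 with BMP2. Smoc2 and Lrig1 were lower than control with BMP7 and lower again with BMP2, with means of 1080 and 45.5 for Smoc2 and 2560 and 554 for Lrig1. The Wnt target Axin2 fell by 1.35 on the log2 scale. Cd44, an adhesion receptor of crypt and regenerating cells, was instead at 13000, 10800 and 11900 with BMP7 and at 31500, 33100, 28400 and 28500 with BMP2, against 3350 to 4000 in controls. It was 2.55-fold higher with BMP2 (limma adjusted p = 3.62e-08), and the ephrin receptor Ephb3 was higher by 1.17 on the log2 scale.

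Inhibitors of the cell cycle and p53 targets moved the opposite way. Of 13 tested, 9 were higher with BMP2, 2 were lower and 2 did not pass, 84.6% called beside 62.8% of all genes. Their median log2 difference was 1.11. Cdkn1a, which encodes the CDK inhibitor p21, was at 2560, 2990 and 4230 with BMP7, 1170 to 1900 in controls and 11400, 13800, 12100 and 13500 with BMP2. The 3 groups were fully separate, and BMP2 was 3.90-fold above BMP7 (limma adjusted p = 8.71e-07). Gadd45a, a growth arrest gene, had means of 940 and 3708, and Mdm2, the p53 ubiquitin ligase, was higher by 1.11 on the log2 scale. Ccng1 and Fas, both p53 targets, fell by 0.34 and 0.95 on the log2 scale, against the direction of the other called members. Under a common total or TMM scaling 4 members were lower.

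Genes of the villus tip, where enterocytes end their life, were higher with BMP2 in 10 of 13 cases and lower in 0. Called were 76.9%, beside 62.8% of all genes, and the median log2 difference was 1.74, or 1.28 without BMP7 replicate II. This list holds genes that earlier results of these data had in view, so its direction is a description. Nt5e, the ecto-enzyme that makes adenosine, was at 313, 223 and 456 with BMP7 and at 2050, 2480, 8100 and 4840 with BMP2, against 9.13 to 27.5 in controls. The BMP2 samples differed up to 4-fold among themselves and still lay above every BMP7 sample (log2 difference 3.56 ± 0.51, SE, limma adjusted p = 7.08e-06). Ada, which degrades adenosine, was at 868, 1430 and 3990 with BMP7 and at 4690, 7540, 25000 and 19500 with BMP2, so the nearest samples were only a little apart. Its log2 difference was 2.75 ± 0.59 (SE, limma adjusted p = 0.000494). Klf4, a factor of cell cycle exit, was at 917, 719 and 873 with BMP7 and at 3410, 3790, 3530 and 2600 with BMP2, the smallest p of the list (adjusted p = 2.53e-09). Egfr, the receptor for epidermal growth factor, was higher by 1.79 on the log2 scale. Apoa4, the apolipoprotein of the upper villus, was at 5490, 12100 and 23800 with BMP7 and at 7640, 12500, 20600 and 40800 with BMP2. Those groups overlapped, and the difference did not pass (adjusted p = 0.400, 95% interval of the log2 difference -0.59 to 1.66). With the replicate number in the fit Apoa4 passed narrowly (limma adjusted p = 0.0499).

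Digestive enzymes of the brush border went down. Of 16 hydrolases tested, 11 were lower with BMP2, 0 were higher and 5 did not pass, 68.8% called beside 62.8% of all genes. Their median log2 difference was -1.76, and 1 was higher without BMP2 replicate III or BMP7 replicate VI. Sis, which encodes sucrase-isomaltase, was at 4510, 8350 and 8120 with BMP7, 16200 to 37500 in controls and 1330, 1470, 1280 and 2320 with BMP2. Each step was without overlap, and BMP2 was 4.37-fold below BMP7 (limma adjusted p = 2.58e-05). The peptidase Dpp4 was at 769, 1100 and 918 with BMP7 and at 165, 141, 71.8 and 173 with BMP2 (log2 difference -2.81, adjusted p = 4.56e-09). Lct, which encodes lactase, was at 244, 550 and 512 with BMP7 and at 22.7, 37.1, 24.7 and 151 with BMP2. BMP7 did not pass against control for Lct (log2 0.93, limma adjusted p = 0.234), whereas BMP2 was lower than control (log2 -2.31, adjusted p = 0.000793). Alpi, intestinal alkaline phosphatase, had means of 11310 and 15000 and did not pass (adjusted p = 0.0996).

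Among nutrient and ion transporters 7 of 14 were lower, 1 was higher and 6 did not pass, 57.1% called beside 62.8% of all genes. Their median log2 difference was -1.19. Slc26a3, a chloride-bicarbonate exchanger, was at 497, 456 and 750 with BMP7 and at 23.8, 24.3, 20 and 74.7 with BMP2, a 15.9-fold lower mean (limma adjusted p = 1.99e-08). The glucose transporter Slc5a1 had means of 2880 with BMP7 and 543 with BMP2, and the fructose transporter Slc2a5 fell by 3.18 on the log2 scale. The bile acid transporter Slc10a2 was the 1 that was higher, by 1.13. Of the structural genes of the microvillus, 8 of 10 were higher with BMP2, 0 were lower and 2 did not pass. Their called share was 80% beside 62.8% of all genes, and their median log2 difference was 0.68. The median was 0.29 under a common total and 0.19 with quantile normalization, with 5 higher under each. Ezr, the linker of membrane and actin, was at 14100, 12400 and 13600 with BMP7 and at 32500, 33900, 25000 and 27500 with BMP2. The protocadherin Cdhr2 and the actin bundler Espn were higher by 1.54 and 1.52 on the log2 scale.

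Of 23 lipid absorption genes tested, 9 were higher, 7 were lower and 7 did not pass, a called share of 69.6% beside 62.8% of all genes. The median log2 difference of 0.19 turned to -0.19 under a common total and to -0.01 without BMP7 replicate II. Under a common total or quantile normalization 5 were higher. Plin2, a lipid droplet coat protein, was at 2110, 1930 and 2600 with BMP7 and at 8580, 8070, 6770 and 6740 with BMP2 (3.41-fold, limma adjusted p = 1.15e-08), and Dgat2, an enzyme of triglyceride synthesis, was higher by 1.53 on the log2 scale. Apob, the chylomicron scaffold, was at 31800, 51200 and 28600 with BMP7 and at 94000, 75900, 215000 and 62200 with BMP2. The Apob groups did not overlap, and its call (adjusted p = 0.00199) was lost with quantile normalization (0.147). Fabp1, the fatty acid carrier of the proximal gut, was at 5080, 7730 and 7880 with BMP7 and at 2320, 1640, 912 and 2900 with BMP2, a fall by 1.92 on the log2 scale (limma adjusted p = 5.08e-05). Mttp, which loads lipid onto Apob, fell by 1.16. Of 18 enterocyte transcription factors, 6 were higher, 6 were lower and 6 did not pass, shares near the 31.4% of all genes in each direction. Their median of 0.16 turned to -0.23 under a common total, where 2 were higher, and to -0.16 with quantile normalization. Vdr, the vitamin D receptor, had the smallest p of that list and fell from 1900 to 2140 with BMP7 to 373 to 568 with BMP2 (adjusted p = 2.2e-09). Ppara and Cdx1 fell by 2.09 and 1.79 on the log2 scale, and Hnf4a had means of 17667 and 19900 with no call (adjusted p = 0.335).

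**Figure D3:**
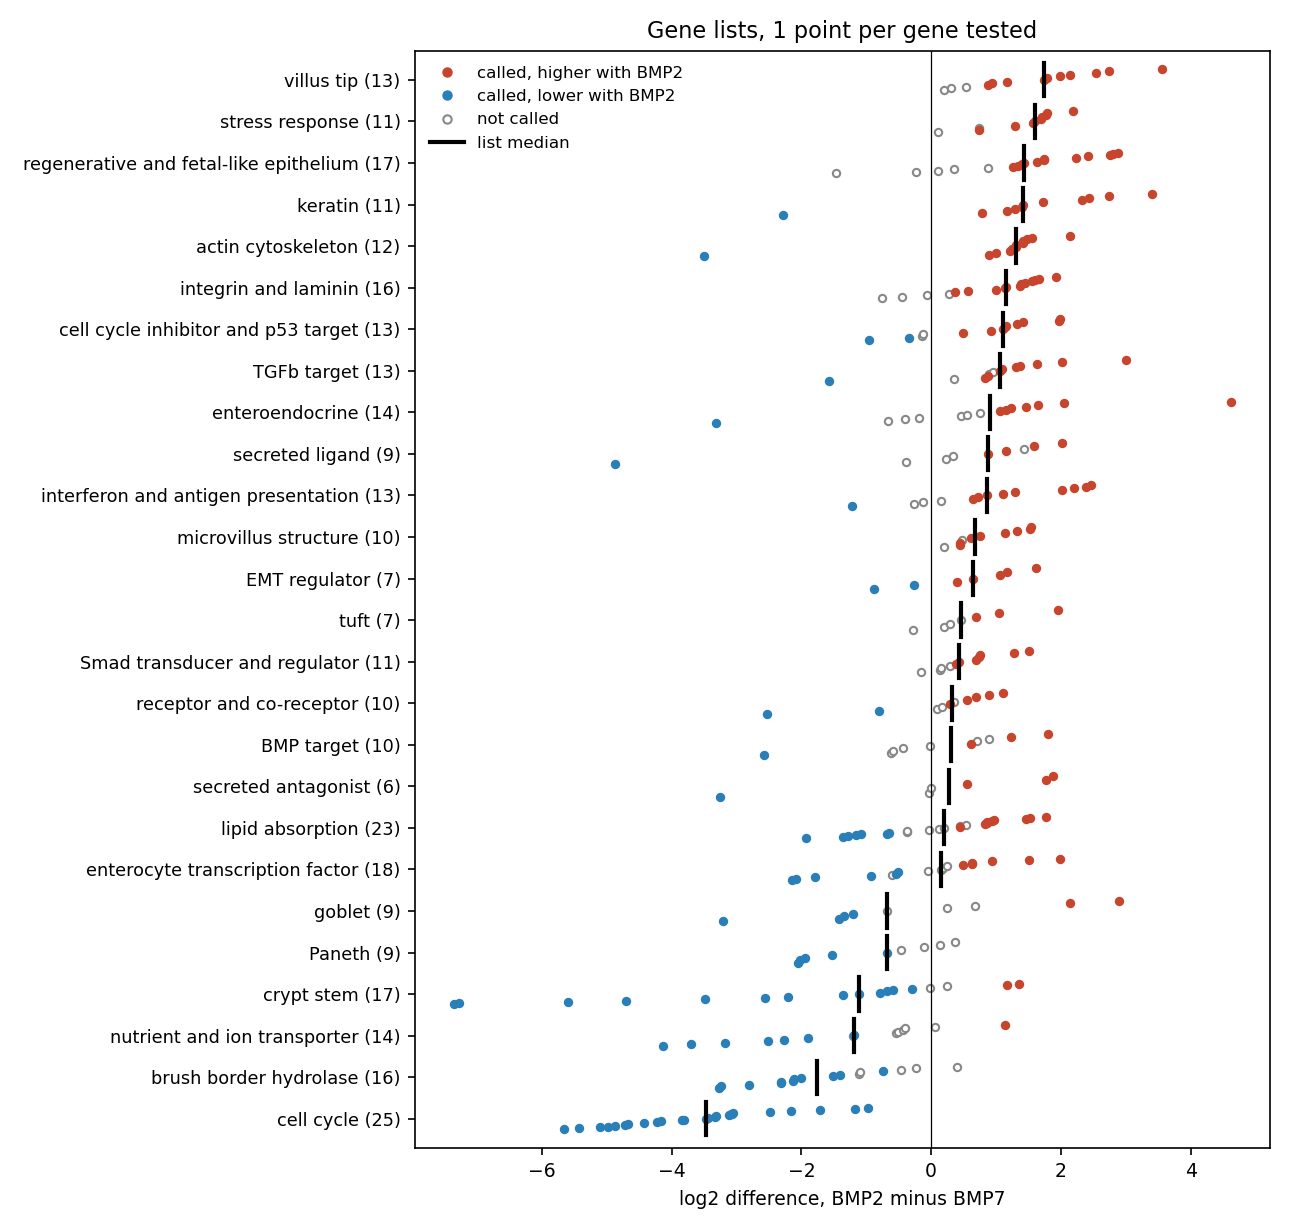
Log2 difference (BMP2 minus BMP7, horizontal) of every tested gene in 26 lists (vertical, number tested in brackets), with called genes filled, genes not called open and the list median as a bar. The cell cycle list lies wholly below 0 with a median of -3.48, and the villus tip list has a median of 1.74.

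Genes of regenerating and fetal-like epithelium were higher with BMP2 in 12 of 17 cases, lower in 0 and not passing in 5. Their median log2 difference was 1.43, and the called share of 70.6% was near the 62.8% of all genes. Against control 15 of the 17 were higher with BMP7 and 17 with BMP2, so the list rose with both ligands. The shares of all genes called against control were 32.4% with BMP7 and 75.1% with BMP2. Clu, which encodes clusterin and marks revival stem cells, was at 50900, 43100 and 56500 with BMP7, 2390 to 4110 in controls and 120000, 136000, 115000 and 133000 with BMP2. The groups were far apart, with a 2.51-fold higher mean (limma adjusted p = 0.00108) and a call that was lost with quantile normalization (0.0767). Anxa3, an annexin, was at 5720, 5770 and 6930 with BMP7 and at 20100, 23000, 19200 and 19700 with BMP2 (adjusted p = 3.9e-08). Anxa1, Ptgs2 and Areg, which encode an annexin, a prostaglandin synthase and an Egfr ligand, were higher by 2.76, 2.88 and 2.23 on the log2 scale. Ly6a, the Sca1 antigen of fetal-like cells, had means of 1397 and 1718 and did not pass (adjusted p = 0.832).

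Most keratin, adhesion and actin genes were higher with BMP2. Of 11 keratins tested, 10 were higher with BMP2 and Krt4 was lower, 100% called beside 62.8% of all genes. Their median log2 difference was 1.42. Krt14, a keratin of basal cells in stratified epithelia, was at 289, 205 and 467 with BMP7 and at 1300, 1640, 2160 and 3680 with BMP2, against 1.65 to 3.55 in controls (log2 difference 2.74 ± 0.66, SE, limma adjusted p = 0.0015). Krt23 was at 2930 to 3320 with BMP7 and 11500 to 22100 with BMP2, and Krt6a, which has near-identical copies, was higher by 3.41 on the log2 scale. Of 16 integrin and laminin genes, 12 were higher, 0 were lower and 4 did not pass, 75% called beside 62.8% of all genes (median 1.15). Itgb1, the common integrin beta subunit, was at 14000, 12900 and 14500 with BMP7 and at 40300, 42700, 37100 and 41200 with BMP2 (2.92-fold, adjusted p = 4.26e-10). The laminin chain gene Lama3 had means of 196 in controls, 7357 with BMP7 and 28050 with BMP2. Of 12 actin cytoskeleton genes, 11 were higher and the smooth muscle light chain Myl9 was lower, 100% called beside 62.8% of all genes (median 1.31). Tpm1, a tropomyosin, was at 11500 to 13300 with BMP7 and 30100 to 39100 with BMP2.

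Regulators and markers of epithelial-mesenchymal transition were in part too low to test: 7 of 13 passed the filter, and Snai1, Snai2, Zeb1, Zeb2, Twist1 and Cdh2 did not. Of the 7, 5 were higher with BMP2 and 2 were lower, 100% called beside 62.8% of all genes. Their median log2 difference was 0.65. Cdh1, which encodes the epithelial cadherin, was at 48500, 42000 and 49300 with BMP7 and at 103000, 101000, 103000 and 110000 with BMP2, and Vim, the mesenchymal filament vimentin, had means of 65.8 and 34.5. Epcam, Esrp1, Esrp2 and Ovol1, epithelial genes like Cdh1, were the other higher members. Vimentin fell by 0.88 on the log2 scale (limma adjusted p = 0.002), and Grhl2, an epithelial factor, fell by 0.26 (adjusted p = 0.0175). Without BMP7 replicate II, 1 of the 7 was lower.

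Secretory lineages differed gene by gene. Of 14 enteroendocrine genes, 7 were higher with BMP2, 1 was lower and 6 did not pass, 57.1% called beside 62.8% of all genes. Their median log2 difference was 0.91, with 2 lower under a common total and without replicate II of either ligand. Neurog3, the factor that starts the endocrine lineage, was at 21.8, 23.7 and 18.3 with BMP7, 110 to 193 in controls and 1 read in each BMP2 sample. On reads the BMP7 rate was 17.6 times the BMP2 rate, with a 95% exact conditional interval of 6.56 to 66.3 for counting error only. Several hormone and amine genes were among the 7 higher: besides Pyy, secretin (Sct) had means of 216 and 707, neurotensin (Nts) 18.0 and 77.7, and the serotonin enzyme gene Tph1 762 and 2210. Chga, the granule protein chromogranin A, was at 1220, 1010 and 850 with BMP7 and at 3240, 2640, 2010 and 1180 with BMP2, so replicate VI overlapped with BMP7. Its call (adjusted p = 0.00565) was lost under a common total (0.0784). The hormone genes Gcg, Gip, Sst and Ghrl did not pass the test.

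Of 9 Paneth genes, 5 were lower with BMP2, 0 were higher and 4 did not pass, 55.6% called beside 62.8% of all genes. Their median log2 difference was -0.68, and 1 was higher without BMP2 replicate III or IV. Without replicate IV the median was -0.40, and with quantile normalization it was -1.19, with 7 lower and 1 higher. Habp2, a secreted protease, was at 417, 411 and 440 with BMP7, near the 341 to 394 of controls, and at 90.8, 129, 65.9 and 135 with BMP2. Lyz1, lysozyme, was at 31000, 37900 and 29400 with BMP7 and at 42000, 21800, 15400 and 22000 with BMP2. Lyz1 overlapped through BMP2 replicate II, and its log2 difference of -0.46 did not pass (adjusted p = 0.147). It passed without that replicate (adjusted p = 0.0107), with quantile normalization (log2 -1.06, adjusted p = 0.00175) and under a common total (log2 -0.85, adjusted p = 0.0131). The Defa genes are near-identical copies whose reads may be shared. Of 9 goblet genes, 2 were higher, 4 were lower and 3 did not pass, 66.7% called beside 62.8% of all genes. Their median was -0.68. That median depended on single samples: it was -0.09 without BMP7 replicate III, -0.34 without BMP2 replicate III or VI, -1.11 without BMP2 replicate II and -1.15 without BMP7 replicate VI. Zg16, a lectin-like goblet protein, was at 167, 149 and 153 with BMP7, 266 to 511 in controls and 2160, 1020, 901 and 950 with BMP2, so it fell with BMP7 (adjusted p = 0.00265) and rose with BMP2 (adjusted p = 1.12e-05) against control by limma. The goblet factor Spdef fell by 1.42 on the log2 scale, and Muc2, the main mucin, overlapped widely (adjusted p = 0.401). Muc2 passed narrowly with the replicate number in the fit (adjusted p = 0.0467). Of 7 tuft genes, 3 were higher (5 with quantile normalization), 0 were lower and 4 did not pass. Called were 42.9%, beside 62.8% of all genes. Their median was 0.46, or 0.21 without BMP7 replicate VI and 0.08 under a common total. Avil, an actin-binding protein of tuft cells, was at 271 to 379 with BMP7 and 1010 to 1840 with BMP2, and Dclk1 had means of 212 and 259 (adjusted p = 0.142). Dclk1 passed with quantile normalization (log2 0.64, adjusted p = 0.00414) and with the replicate number in the fit (adjusted p = 0.0272).

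Interferon and stress genes were higher with BMP2 in most cases. Of 13 interferon and antigen presentation genes, 9 were higher, 1 was lower and 3 did not pass, 76.9% called beside 62.8% of all genes. Their median log2 difference was 0.87. The interferon-induced Isg15 had means of 54.4 in controls, 333 with BMP7 and 1663 with BMP2, and Ifit1 was higher by 2.46 on the log2 scale. The class I molecule gene H2-D1 was at 5070 to 6930 with BMP7 and 13200 to 15000 with BMP2. The class II invariant chain Cd74 was the 1 lower gene, at means of 39.5 and 17.5 (limma adjusted p = 0.0465). That call was lost without BMP2 replicate III or VI and without BMP7 replicate II or VI. It was also lost with no filter on low values and with a pseudocount of 0.1. Of 11 stress genes, 9 were higher, 0 were lower and 2 did not pass, 81.8% called beside 62.8% of all genes (median 1.61). Jun, an immediate early factor, was at 6060, 3570 and 4360 with BMP7 and at 17700, 14800, 12900 and 14600 with BMP2, and Atf3 was higher by 2.19 on the log2 scale. The chaperone Hspa5, induced by protein misfolding in the endoplasmic reticulum, had means of 16367 and 17800 and did not pass (adjusted p = 0.495).

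**Figure D4:**
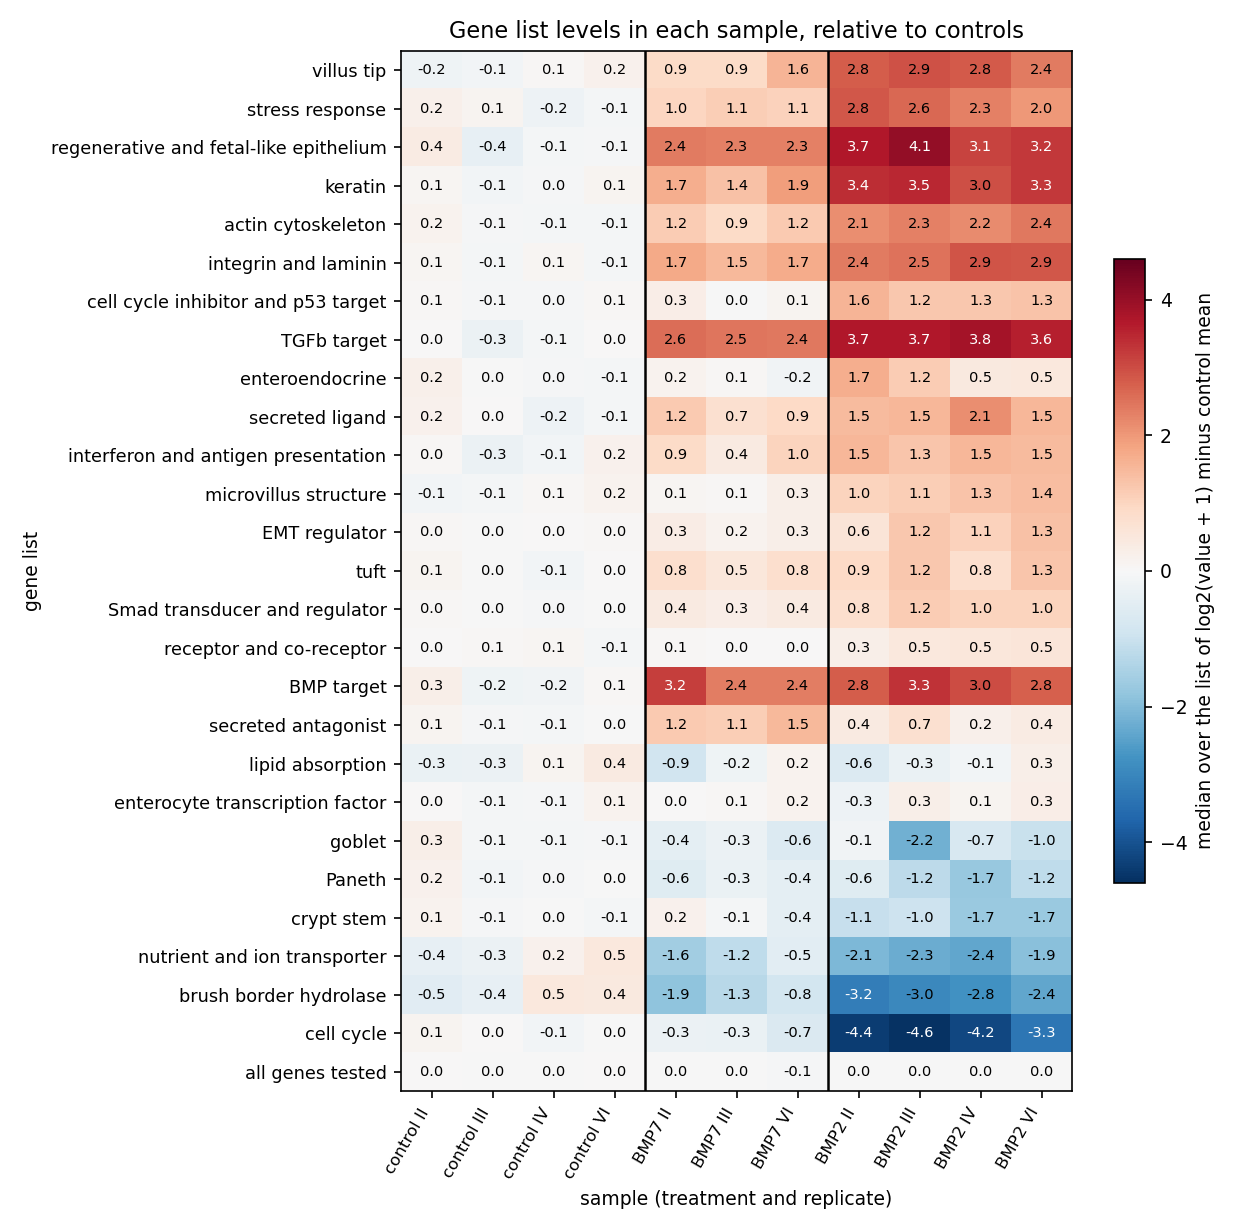
Median over each list of log2(value + 1) minus the control mean (colour and printed value) in the 4 control, 3 BMP7 and 4 BMP2 samples (columns). In the cell cycle row BMP7 samples lie at -0.3 to -0.7 and BMP2 samples at -3.3 to -4.6, while in the BMP target row BMP7 samples lie at 2.4 to 3.2 and BMP2 samples at 2.8 to 3.3.

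Genes that BMP7 moved farther from control than BMP2 were a small part of the 9262 called between the ligands. Both ligands passed against control in 1 direction for 3648 with BMP2 farther and for 35 with BMP7 farther. BMP2 passed with BMP7 near control (absolute log2 difference under 0.25) for 3084, and the reverse held for 111. The ligands passed in opposite directions for 51. Serpina9, a serine protease inhibitor, was at 454, 272 and 378 with BMP7, 7.47 to 24.9 in controls and 43.1, 33.2, 23.5 and 74.7 with BMP2. Both ligands raised it against control, but BMP7 went farther, with a log2 difference of -3.14 ± 0.42 between BMP2 and BMP7 (SE, limma adjusted p = 3.61e-06). Fam83c and Lrrc4, a synaptic adhesion gene, had the same order, with means of 97.1 and 91.0 with BMP7, 26.3 and 22.4 with BMP2, and 5.53 and 4.73 in controls. Some genes were called above control with BMP7 and lay near control with BMP2 (absolute log2 difference under 0.25). Dact3, a regulator of Wnt signalling, was at 175, 98.4 and 106 with BMP7, 3.55 to 14.2 in controls and 9.08, 10.2, 2.35 and 19 with BMP2. Apobec2, a member of the cytidine deaminase family, was at 258, 243 and 327 with BMP7, 18.6 to 40.5 in controls and 11.4, 29.4, 23.5 and 46.8 with BMP2. Tnfsf13b, the B cell survival factor BAFF, was at 267, 275 and 293 with BMP7 and at 107, 51.1, 36.5 and 93.7 with BMP2. For these 3 genes BMP2 did not differ from control (adjusted p = 0.872, 0.806 and 0.964), and the difference between the ligands passed (adjusted p = 4.17e-06, 2.19e-06 and 1.96e-06).

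Other genes moved in opposite directions from control. Gkn3, a gastrokine secreted by mucosal epithelium, was at 1010, 964 and 1110 with BMP7, 338 to 502 in controls and 14.8, 19.2, 20 and 72.1 with BMP2. It was raised by BMP7 (log2 1.40, limma adjusted p = 0.00429), lowered by BMP2 (log2 -3.88, adjusted p = 2.27e-09), and the ligands differed by -5.28 ± 0.34 (SE, adjusted p = 7.39e-10). Fstl4, a follistatin-like gene, and Gprc5b, an orphan receptor, had the same pattern, with means of 315 and 131 with BMP7, 87.4 and 39.8 in controls and 10.6 and 8.78 with BMP2. A further set was lowered by BMP2 while BMP7 stayed near control. Nr2e3, a nuclear receptor, had means of 439 in controls, 364 with BMP7 and 14.4 with BMP2. Neither Nr2e3 nor Top2a passed the test between BMP7 and control (limma adjusted p = 0.711 and 0.733). Such p-values do not show that BMP7 left these genes unchanged.

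**Figure D5:**
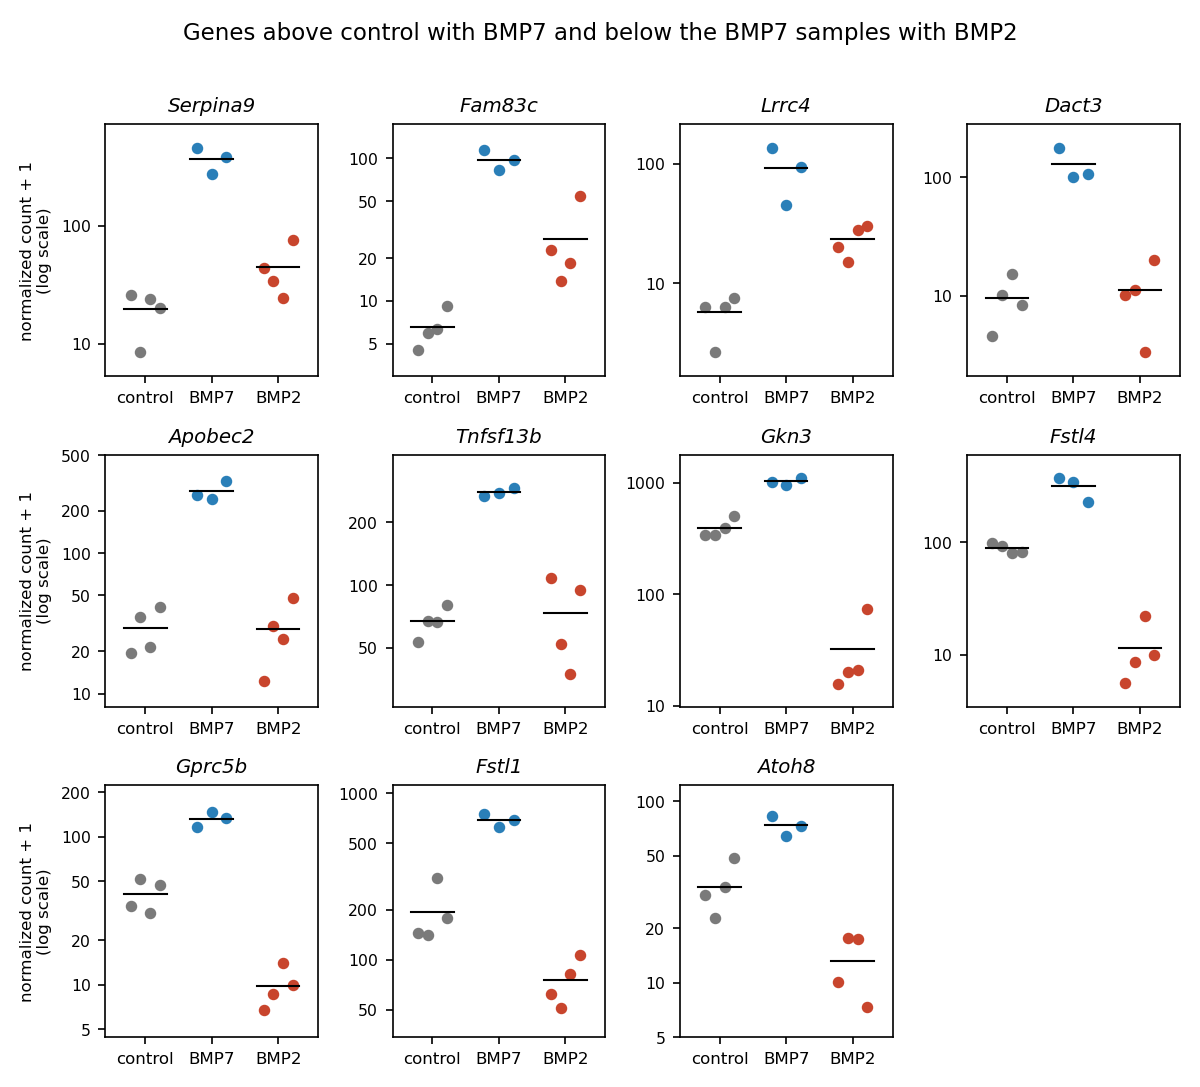
Normalized count + 1 (vertical, log scale) of 11 genes in each of the 4 control, 3 BMP7 and 4 BMP2 samples (points), with the group mean as a line. In each panel all BMP7 samples lie above all control samples and all BMP2 samples. For Gkn3, Fstl4, Gprc5b, Fstl1 and Atoh8 the BMP2 samples also lie below every control sample.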

How the data were processed

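Expression was analysed in 7 organoid samples, 4 with BMP2 and 3 with BMP7, in 1 fit with the 13 other samples of their table, the controls among them. Trim Galore, Salmon, DESeq2 and the GRCm39 build come from the submitters' processing notes; versions, roles and the strand setting are not given in the sources used here. The deposited values are a signal: gene counts that the authors had divided by a size factor for each sample, as the low values show. All 180721 values of up to 20 reads (100%) fell within 0.1 of a whole read, with 1 read worth 1.14 to 1.28 normalized counts under BMP2 and 0.907 to 0.962 under BMP7. The edgeR test on these reads called 9238 genes. Values keep 3 digits.

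Of 29413 genes, the 14746 whose mean over the 20 samples reached 10 were tested two-sided with limma (version 3.58.1, R 4.3.3). The fit used log2(value + 1), a scale that shrinks the differences of low genes, and an intensity trend, and its 6 groups shared 1 spread. Calls needed a Benjamini-Hochberg adjusted p under 0.05. Sums over a sample were compared by exact permutation (35 arrangements). Alternatives used edgeR 4.0.16, DESeq2 1.42.0, other scalings, filters and pseudocounts, fewer samples, and 1 sample left out; the fit was tested on simulated data. Deviations of same-numbered BMP2 and BMP7 samples had correlations of 0.17, -0.11 and 0.22 for replicates II, III and VI. Samples with unlike numbers had -0.23 to 0.16. Replicates II and VI thus lay above every unlike pair and replicate III did not. This check did not settle whether the numbers pair the samples. The main fit held no replicate term, so its p-values leave out any such pairing. The replicate number entered only an alternative fit, which called 10300 genes between the ligands beside 9262 in the main fit.

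The members, the 26 gene lists and the naming rule were chosen with earlier results of these data known. Named were the 6 highest and 6 lowest genes among called ones whose groups do not overlap and whose mean reaches 50, 26 fixed genes, the smallest p of each list, and the 3 largest differences in each of 5 patterns against control. Of the named genes, 2 are not reported here. Other list members were named after their values were seen. List counts cover members that passed the filter. The labels do not assign samples to sequencing runs, so a run effect was not tested.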

Additional observations from a re-analysis of the deposited data

Results flagged for a closer look

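Single samples stood apart from the rest of their group for 12 of 141 groups of 4 samples checked, by a ratio of the gap to the nearest sample over the group's whole range that passed Dixon's critical value; chance gives about 1 in 20, and the BMP7 groups of 3 were not checked. BMP2 replicate VI was the highest of its group for Olfm4 (549 against 66.5 to 88.5, ratio 0.954), Lct (151 against 22.7 to 37.1, ratio 0.888), Slc26a3 (74.7 against 20 to 24.3, ratio 0.921) and Gkn3 (72.1 against 14.8 to 20, ratio 0.909). BMP2 replicate II was the highest for Zg16 (2160 against 901 to 1020, ratio 0.905) and for Prelp (2.27 against 0, ratio 1). BMP2 replicate III was the highest for Tgif1 (ratio 0.941). BMP2 replicate IV was the highest for Avil (1840 against 1010 to 1090, ratio 0.904). Control replicate IV was the highest for Apob (37700 against 17000 to 18400, ratio 0.932), Neurog3 (193 against 110 to 123, ratio 0.843), Piezo2 (0.887 against 0, ratio 1) and Stmn2 (1.77 against 0, ratio 1).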

How the results depend on the processing

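The count of genes called between BMP2 and BMP7, 9262, ranged from 8227 to 10300 over the alternatives, with 9238 by edgeR and 9509 by DESeq2 on recovered reads and 8396 to 9160 when 1 sample was left out. It was 10300 with the replicate block, a fit that includes the replicate number. The check of those numbers did not settle whether they pair the samples. With that block the named genes Apoa4, Dclk1, Muc2 and Smad6 passed (limma adjusted p = 0.0499, 0.0272, 0.0467 and 0.0216). A common total for all samples gave 2514 higher and 6971 lower. The median log2 differences of 5 lists changed sign with that scaling, to -0.088 for BMP targets, -0.068 for receptors, -0.11 for antagonists, -0.19 for lipid absorption and -0.23 for enterocyte transcription factors; the last was also -0.16 with quantile normalization. The lipid absorption median ranged from -0.012 to 0.40 when 1 sample was left out, being -0.012 without BMP7 replicate II. Quantile normalization moved the medians of keratins to 0.89, integrins and laminins to 0.65, actin genes to 0.75 and transition regulators to 0.34. A common total moved those of Tgfb targets to 0.67 and enteroendocrine genes to 0.52. In place of scaled values, recovered reads summed to a difference of 13192 per sample (exact permutation p = 1). The cause of these changes was not tested. Of the named genes' values under the alternatives, 1320 kept direction and call, 10 gained the call and 10 lost it.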

Other observations

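Genes outside the lists, chosen after their values were seen, added further groups. Cym, which encodes the milk-clotting protease chymosin, was at 1110, 1230 and 3120 with BMP7, 0 to 26.4 in controls and 32.9, 12.8, 2.35 and 170 with BMP2, a log2 difference of -6.16 between the ligands (limma adjusted p = 0.000116). Cps1, the mitochondrial carbamoyl phosphate synthase, was at 41200, 44300 and 34400 with BMP7 and at 1000, 435, 252 and 2270 with BMP2. For Cps1, BMP7 did not pass against control (limma adjusted p = 0.303). Aqp1, a water channel, had means of 1828 in controls, 401 with BMP7 and 5.53 with BMP2. On the higher side, Osmr, the oncostatin M receptor, had means of 36.1 with BMP7 and 426 with BMP2, Plxna4, a semaphorin receptor, 86.8 and 1089, and Loxl2, a matrix cross-linking oxidase, 80.3 and 864. Cldn4, a tight junction protein, was at 10900 to 15100 with BMP7 and 72200 to 102000 with BMP2.

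The 4 BMP2 samples were not alike for some named genes, and some of the same replicates stood apart in the other groups. With BMP2, replicates IV and VI were above II and III for Ada (25000 and 19500 against 4690 and 7540), Nt5e (8100 and 4840 against 2050 and 2480) and Slc28a2 (11000 and 7650 against 1870 and 2840), and below them for Id2 (820 and 715 against 1640 and 1840). With BMP7, replicate VI was above II and III for Ada (3990 against 868 and 1430), Nt5e (456 against 313 and 223) and Slc28a2 (1770 against 387 and 713), and below them for Id2 (900 against 1200 and 1450). In controls, replicates IV and VI were below II and III for Id2 (241 and 310 against 413 and 421).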
